A study of Mus musculus with 10 samples.

Results

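The 200 brightest probes of the long noncoding RNA family of an Agilent mouse array are described here in RNA from brain-derived extracellular vesicles. They were taken from 27812 probes whose names start with ASMM10LNC1A, among 60823 probes in all that are not controls. The members were chosen by their measured level, averaged over all 10 arrays whatever the group, so their high level is a description and no result. A level is the log2 processed intensity of the spot minus the 75th percentile of its array. A level of 8 therefore means an intensity far above that of the brighter probes of the array, and a difference of 1 between levels is a doubling. Each member has 1 spot on an array.

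Both groups were adult female mice of the inbred strain C57BL/6J. One group breathed room air (5 arrays, the control) and the other ethanol vapor (5 arrays), in sessions of 8 h on 5 days of each of 4 weeks, a schedule known as chronic intermittent ethanol exposure. Whole brains were taken directly after the last day of exposure, vesicles were isolated by differential ultracentrifugation, and total RNA was amplified and labelled with Cy3. The comparison asked how the long noncoding RNA load of brain vesicles differs after ethanol. Arrays are called by group and by the sample number of the title, which runs across both groups (room air 1, 2, 3, 5 and 9; ethanol 4, 6, 7, 8 and 10). No label ties a sample to a mouse of its own, so a p-value here reflects the spread of these 10 samples, part of which may be technical.

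Long noncoding RNAs are transcripts that do not encode a protein. Many stay in the nucleus and act on chromatin or splicing, while others reach the cytoplasm and bind proteins or other RNAs. The brain expresses a large and cell-type-restricted set of them. Extracellular vesicles are membrane-bound particles that cells release, either by budding from the plasma membrane or by fusion of multivesicular endosomes with it, and they carry RNA and protein to other cells and into body fluids. Vesicle RNA is often fragmented and passes through amplification before hybridisation, so the intensity of a probe depends on its own binding and labelling as well as on the amount of its RNA.

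The files pair 0 of the 200 members with a gene name or an accession, and the second name column repeats the probe name for every member. Probe sequences and gene assignments of the members were not used here, so members are given by probe name, without position or function. Of the 51 marker genes listed to check the tissue, 1 had a named probe on the array. It was Mbp, which encodes myelin basic protein of oligodendrocytes, with levels from 0.75 to 1.51 (median 1.17) and well above background on all 10 arrays. Markers of neurons, astrocytes, microglia, vessels, blood and vesicles, and well-known brain long noncoding RNAs such as Malat1 and Meg3, were not matched to a named probe, so the labelled source could not be checked further.

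By the scan image identifier that the file headers carry, the arrays form sets of 4 and 6, called scan 1 and scan 2 here. Scan 1 holds room air 1, 2 and 3 and ethanol 4, and scan 2 holds room air 5 and 9 and ethanol 6, 7, 8 and 10. No source used here says what else differed between these sets. The share of non-control spots well above background was 62.1% to 74.5% on scan 1 and 75.9% to 87.9% on scan 2. Because the groups are uneven over the scans, values with the scan as a block and within each scan stand beside the results.

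Mean levels of the members ran from 7.86 to 9.25 with a median of 8.32, which is 232 to 609 times the 75th percentile of the array. The median of the whole family was -1.56. Of the members 13 had a mean level of at least 9, 54 lay between 8.5 and 9, 99 between 8 and 8.5, and 34 below 8. No gap in level marks the limit of the choice. The last 3 members, ASMM10LNC1A100083996V4, ASMM10LNC1A114024308V4 and ASMM10LNC1A100086904V4, averaged 7.861, 7.861 and 7.858. The first 3 probes left out, ASMM10LNC1A107911886V4, ASMM10LNC1A113336415V4 and ASMM10LNC1A113860537V4, averaged 7.856, 7.846 and 7.838.

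All 200 members were well above background on every one of the 10 arrays. The median pixel intensity of a member spot was divided by the median of its local background. The median of this ratio over the members ran from 3178 on room air 1 to 6423 on ethanol 4. No spot was saturated, and the brightest member reached from 18.0% to 26.0% of the saturation value of the scanner. Members are spread over the surface of the array, from row 2 to row 384 and from column 1 to column 164, with a median row of 190 against 192 for all spots.

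These 200 probes carried a large part of the light on each array. Their processed intensities made up 12.9%, 12.9%, 11.7%, 14.8% and 15.6% of the total over spots that are not controls on room air 1, 2, 3, 5 and 9. On ethanol 4, 6, 7, 8 and 10 they made up 13.6%, 16.0%, 15.3%, 17.0% and 16.0%. The groups overlap, while the 4 arrays of scan 1 (11.7% to 13.6%) all lie below the 6 of scan 2 (14.8% to 17.0%). The mean share was 13.6% ± 1.58 (SD, n = 5) for room air against 15.6% ± 1.27 (SD, n = 5) for ethanol, 2.01 percentage points apart. Within scan 1 ethanol 4 was 1.11 points above the mean of the 3 room air arrays, and within scan 2 the ethanol mean was 0.879 points above that of room air. Within the ASMM10LNC1A family the same 200 probes held from 25.1% to 37.2% of the intensity.

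ASMM10LNC1A100074342V4 had the highest mean level of the family and stood 4th of all 60823 probes. Its processed intensities were 129186, 161808, 150884, 191684 and 192416 on room air 1, 2, 3, 5 and 9. They were 169166, 192017, 179516, 170482 and 196065 on ethanol 4, 6, 7, 8 and 10. The dimmest reading belongs to room air 1 and the brightest to ethanol 10, and the ranges of the groups overlap. As a level its mean was 9.06 ± 0.32 (SD, n = 5) for room air against 9.44 ± 0.17 (SD, n = 5) for ethanol. Among the family it was 1st or 2nd on every array.

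The next members stayed close to it. ASMM10LNC1A100042399V4 averaged 9.21, ASMM10LNC1A101553603V4 9.19 and ASMM10LNC1A100084440V4 9.17, and each of these was first of the family on at least 1 array. ASMM10LNC1A100002477V4 (9.10), ASMM10LNC1A115302988V4 (9.09), ASMM10LNC1A100111306V4 (9.07), ASMM10LNC1A102094572V4 (9.06), ASMM10LNC1A116057102V4 (9.05) and ASMM10LNC1A104274205V4 (9.03) complete the 10 highest. Within an array the first probe read above the second on 9 of 10 arrays, with a mean gap of 0.038 ± 0.033 (SD, n = 10 arrays). For the other neighbours in this order the mean gap, from 0.0078 to 0.071, was smaller than its SD over the arrays, from 0.056 to 0.12. The probe ranked higher by its mean read above the next on 4 to 8 of 10 arrays, and this order was not tested. The lowest family rank that any of the 10 took on an array was 36, for ASMM10LNC1A104274205V4 on room air 3. Together the 10 probes held from 0.942% to 1.47% of the intensity of an array.

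The set of brightest probes was largely the same in both groups. Chosen from room air arrays alone, the 200 brightest shared 190 with the members, and so did the 200 chosen from ethanol arrays alone, with 180 in common between these lists. Chosen from each scan alone, the lists shared 176 (scan 1) and 185 (scan 2) with the members and 163 with each other. On single arrays from 162 (room air 1) to 185 (ethanol 6) of the members were among the 200 brightest of the family. On every array this held for 115 members, and on at least 9 arrays for 141. The lowest rank of any member on any array was 545 of 27812. The members were chosen on these same arrays, so their overlap with each list is in part built in. Only the counts of 180 and 163 compare lists from separate arrays.

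The order within the 200 followed the scans more than the groups. Spearman's rho over the 200 members averaged 0.897 for 21 pairs of arrays of one scan and 0.678 for 24 pairs of different scans. Within a scan it averaged 0.919 for pairs of one group and 0.876 for pairs of different groups, where the pairs with ethanol 4 make up those of scan 1. Over the whole family the same-scan and different-scan means were 0.967 and 0.901. These coefficients describe probes that share an array, and no test was made of them.

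The members varied less between arrays than most of the tested probes. Their SD over the 10 arrays had a median of 0.36 and ran from 0.17 to 0.72, against a median of 0.61 over the 49363 probes tested. For 193 of the 200 the SD lay below that median. The rule averaged the level over these same arrays, so a probe that was dim on some of them had less chance to be chosen. The 200 brightest probes of another family, ASMM10AP1B, also had a median SD of 0.36. The steadiest members were ASMM10LNC1A100015962V4 (SD 0.17, levels from 7.70 to 8.25) and ASMM10LNC1A100116171V4 (SD 0.17, levels from 7.70 to 8.21). The most variable were ASMM10LNC1A100031747V4 (SD 0.72), whose levels ran from 6.45 on room air 3 to 8.80 on ethanol 6, and ASMM10LNC1A111842939V4 (SD 0.66), from 6.83 on room air 3 to 8.86 on ethanol 8. Room air arrays spread more than ethanol arrays for 190 of the members, with median SDs of 0.37 and 0.21. The room air group is divided 3 to 2 over the scans and the ethanol group 1 to 4, and the part of the scans in this spread was not tested.

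Most of this variation was a shift that nearly all members of an array shared. The first principal component of the member levels held 84.6% of their variance, and 199 of the 200 members loaded on it with the same sign. The median member level was 8.08, 8.26, 7.67, 8.11 and 8.64 on room air 1, 2, 3, 5 and 9, and 8.58, 8.56, 8.28, 8.62 and 8.71 on ethanol 4, 6, 7, 8 and 10. Room air 3 was lowest and ethanol 10 highest, and room air 9 lay above 4 of the 5 ethanol arrays. Of the members, 172 had their lowest level on room air 3 and 109 their highest on ethanol 10. The 2 room air arrays of scan 2 were themselves apart, with room air 9 above room air 5 for all 200 members and by a median of 0.51.

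The scaling enters into this shift. The 75th percentile subtracted from each array, in log2 intensity, was 7.83, 8.30, 8.60, 8.48 and 8.06 on room air 1, 2, 3, 5 and 9. On ethanol 4, 6, 7, 8 and 10 it was 8.08, 8.09, 8.21, 7.79 and 7.97. Room air 3, with the lowest member levels, had the highest percentile. Before scaling, the median log2 intensity of the members was 15.91, 16.56, 16.27, 16.58 and 16.70 in room air and 16.67, 16.65, 16.49, 16.41 and 16.68 in ethanol vesicles. On that scale room air 1, and not room air 3, was lowest, and the groups overlapped.

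With the median of the members removed from each array, the median SD of a member fell to 0.17 and the first component held 53.8% of what was left. On it room air 1, 2 and 3 scored -3.10, -1.72 and -3.31 and ethanol 4 scored -0.61. All 6 arrays of scan 2 scored above 0, room air 5 and 9 at 1.46 and 1.42 and ethanol arrays from 0.75 to 1.85. The arrays of the scans do not overlap on this relative scale, which a constant added to an array does not change, while the groups do.

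None of the 200 members differed between ethanol and room air vesicles past the threshold. In limma with Benjamini-Hochberg adjustment over 49363 probes, 0 members had an adjusted p under 0.05, and over all tested probes the share was 0.0%. The smallest adjusted p of a member was 0.529, which was also the smallest of any probe. An unadjusted p under 0.05 was found for 13 members, all with a higher mean after ethanol, against 4.51% of all tested probes in that direction. In the other direction there were 0 members, against 0.415% of all probes. With the scan as a block 0 members passed the adjusted threshold, again against 0.0% of all probes, and 4 had an unadjusted p under 0.05, all higher, against 3.97% of all probes higher and 4.64% lower. All 4 were among the 13. In bulk vesicle RNA, fewer vesicles of a kind and less RNA per vesicle cannot be told apart. No member had groups that did not overlap. Over all tested probes the ethanol arrays lay all above those of room air for 0.369% and all below for 0.138%. A count of 0 among 200 members is near these shares and does not set the members apart.

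The count of 13 rested on single arrays. It was 102 without room air 9 and 34 without ethanol 7, and between 0 and 9 when any other array was left out. With array weights in the fit and no scan term 141 members passed the adjusted threshold, when 70.7% of all tested probes did. Those weights gave ethanol 4, the only ethanol array of scan 1, 0.132 and room air 5 and 9 0.211 and 0.207, against 1.32 to 4.43 for the others. With array weights and the scan as a block 0 members passed.

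The ethanol minus room air difference had a median of 0.39 and ran from -0.042 to 0.84, a fold of 0.971 to 1.79, with standard errors from 0.18 to 0.37. It exceeded 1.5-fold in 15 members. A 95% interval that stayed under 2-fold in both directions was found for 132 members (66.0%), and for 187 (93.5%) with the scan as a block, against 38.2% and 86.7% of all tested probes. With the block the median difference was 0.29, and for 172 members the value was smaller than without it.

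How many members lay above 0 depended on the scaling, which moves all probes of an array. With the 75th percentile 198 of 200 members had a higher mean after ethanol, where 69.3% of all tested probes did. After median scaling the number was 88 (37.9% of all probes), after quantile normalization 115 (51.8%), also 115 (51.8%) with values from the authors' deposited table and without any scaling 163 (52.7%). With the percentile of the probes detected on every array it was 200 (84.6%), with a median member difference of 0.65. After normexp background correction it was 198 (71.8%). Over all probes the median difference was 0.26 with the 75th percentile, and member values are also given relative to it. The median of the members was 0.12 above it, and 153 of 200 members lay above it. After median scaling, which also subtracts 1 constant per array, the median of the members was 0.13 above that of all probes with 154 members above, so the place of the members among the probes was nearly the same. After quantile normalization their median was 0.0071 above that of all probes, with 104 members above. The place of the members also depended on the probes and arrays used. Relative to all probes their median was 0.047 with no filter on dim probes (132 members above). It was 0.27 with only probes detected on every array (186 above). Without ethanol 4 it was -0.0042 (99 above), and with array weights and no scan term -0.072 (78 above).

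With the scan as a block 198 members had a higher mean after ethanol, against 55.4% of all probes, and the median of the members lay 0.26 above that of all probes. This relative value was 0.096 without ethanol 4 and 0.44 without room air 9. Within scan 1, where ethanol has 1 array, the median member difference was 0.54, with 191 members above 0 against 49.6% of probes. Within scan 2 it was 0.15, with 195 members above 0 against 58.0% of probes. The difference was larger within scan 1 than within scan 2 in 171 members, and 186 members were above 0 in both. These counts use the scaled levels. Before scaling, the median log2 intensity of the members differed on average by 0.42 within scan 1 and by -0.082 within scan 2 (ethanol minus room air). The subtracted percentile itself differed by -0.16 and -0.25, so the direction within scan 2 depended on the scaling. With the block and quantile normalization 116 members were above 0, and their median was 0.021 above that of all probes. The members of an array share its shift, so the count above 0 does not rest on independent values.

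ASMM10LNC1A100717681V4 had the smallest p of the members in both fits. Its levels were 7.52, 7.86, 7.13, 8.20 and 8.70 on room air 1, 2, 3, 5 and 9, and 8.39, 8.70, 8.75, 8.67 and 8.84 on ethanol 4, 6, 7, 8 and 10. Room air 9 reached into the ethanol range, and the room air arrays of scan 1 were the lowest. The room air mean of 7.88 ± 0.61 (SD, n = 5) stood against an ethanol mean of 8.67 ± 0.17 (SD, n = 5). The difference was 0.79 (SE 0.29), or 1.73-fold, with an adjusted p of 0.529 in limma, and 0.50 (SE 0.20, adjusted p 0.575) with the scan as a block. Within the scans the difference was 0.89 and 0.29. Quantile normalization gave 0.41, median scaling 0.36, and it was 1.05 with the percentile of the probes detected on every array and 0.21 with the block and quantile normalization.

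ASMM10LNC1A111842939V4 had the widest difference of the 200. Its levels were 7.47, 7.63, 6.83, 8.21 and 8.60 in room air and 8.24, 8.64, 8.34, 8.86 and 8.85 in ethanol vesicles, in the same array order. Room air 9 exceeded 2 of the ethanol arrays, and room air 5 lay just below the lowest of them. The difference was 0.84 (SE 0.33), or 1.79-fold, with an adjusted p of 0.529 in limma, and 0.50 (SE 0.22) with the block. After quantile normalization it was 0.47, after median scaling 0.41, and with the block and quantile normalization 0.20. ASMM10LNC1A111680807V4, second by p in the blocked fit, had a difference of 0.61 (SE 0.25), or 0.54 (SE 0.23) once the scan was a block (0.23 after quantile normalization and 0.18 after median scaling), with levels from 7.41 to 8.52 in room air and from 8.17 to 8.79 in ethanol vesicles. The 3 probes read lowest on room air 1 or 3.

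For 2 members the mean was lower after ethanol, and the size and sign of the difference depended on the scaling. ASMM10LNC1A109517063V4 had a room air mean of 7.96 ± 0.31 (SD, n = 5) against 7.92 ± 0.23 (SD, n = 5) for ethanol, so the difference was -0.042 (SE 0.22, 95% interval -0.52 to 0.44) and became 0.13 (SE 0.15) with the scan as a block. ASMM10LNC1A113800674V4 had means of 8.21 ± 0.24 (SD, n = 5) and 8.20 ± 0.27 (SD, n = 5), and the difference was -0.011 (SE 0.21, 95% interval -0.48 to 0.45) and became 0.14 (SE 0.15). After quantile normalization the differences were -0.41 and -0.36, and after median scaling -0.47 and -0.44. With the percentile of the probes detected on every array they were above 0, at 0.22 and 0.25. With the block 2 other members were below 0, ASMM10LNC1A100074447V4 at -0.050 (SE 0.17) and ASMM10LNC1A108457969V4 at -0.045 (SE 0.17). Without the block these were 0.15 (SE 0.24) and 0.35 (SE 0.33).

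The 10 highest members lay within the range of the list. Their differences ran from 0.35 for ASMM10LNC1A100042399V4 to 0.47 for ASMM10LNC1A104274205V4, and from 0.22 to 0.32 with the block, with adjusted p-values of 0.529 in limma. ASMM10LNC1A100002477V4 was fitted on 4 room air arrays, because its spot on room air 1 was marked as an outlier. Across the 200 members the level and the ethanol difference were unrelated as a description (Pearson's r 0.039, Spearman's rho 0.049, over probes that share the same arrays).

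Marked spots among the members were confined to room air 1. There the extraction software marked 13 member spots as outliers, of 151 marked spots on that array, and on the other 9 arrays it marked 0. The 13 spots lay from row 19 to row 381. Their levels stood at a median of -0.14 from the mean of room air 2 and 3, while the other 187 members stood at 0.15. The 13 members were fitted without room air 1, and keeping the spots gave 15 members with an unadjusted p under 0.05 in place of 13.

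Between the scans far fewer of the members than of other probes passed the threshold after scaling to the 75th percentile. In limma with group and scan as terms, 29 of 200 members (14.5%) had an adjusted p under 0.05 for scan 2 against scan 1, while 75.2% of all tested probes did. Of the 29, 27 read higher on scan 2 and 2 lower, where 56.8% and 18.4% of all probes were called. Higher values on scan 2, called or not, were found for 172 members, against 72.3% of all probes. The size of the scan difference, whatever its sign, had a median of 0.27 over the members and 0.99 over all probes, and for 199 members it lay below the latter. Arrays of the scans did not overlap for 9 members, against 61.9% of tested probes. The rule averaged the level over both scans, so a probe that was dim on one of them had less chance to be chosen, and the test of the scans is read only as a description of the list.

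ASMM10LNC1A108457969V4 had the highest scan difference of the members. Its levels were 7.60, 7.97 and 7.41 on room air 1, 2 and 3 and 7.42 on ethanol 4, all in scan 1. On scan 2 they were 8.32 and 8.74 on room air 5 and 9 and 8.44, 8.44, 8.71 and 8.76 on the ethanol arrays. The scans do not overlap, and the fitted difference was 0.99 (SE 0.18, adjusted p 0.000355 in limma). ASMM10LNC1A101649108V4 followed with 0.96 (SE 0.22, adjusted p 0.00169), from 6.84 to 7.86 on scan 1 and from 8.22 to 8.72 on scan 2. Past the threshold and lower on scan 2 were ASMM10LNC1A109517063V4 with -0.44 (SE 0.16, adjusted p 0.0248) and ASMM10LNC1A113800674V4 with -0.39 (SE 0.16, adjusted p 0.0401), which are also the 2 with a lower ethanol mean without the block. For both, ethanol 4 lay above all other ethanol arrays and close to room air 1.

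The number of members that differ between scans depended on the scaling, and so did its place beside all probes. After median scaling and with the percentile of the probes detected on every array, a larger share of members than of all probes was called. With the other scalings given here the share of members was the smaller one. It was 151, all lower on scan 2, after median scaling (63.7% of all probes called), 171, all higher, with the percentile of the probes detected on every array (83.6%), 56 after normexp background correction (73.5%), 27 after quantile normalization (55.7%) and 20 without scaling (67.7%). Relative to the median of all probes the scan difference of the members was -0.43 with the 75th percentile and -0.44 without scaling. These values could hardly differ, because the scaling subtracts a constant from each array. The relative difference was -0.16 after normexp background correction and -0.071 after quantile normalization. The count of 29 was 12 without room air 9, 42 without ethanol 7, and between 22 and 35 when any other array was left out.

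Other bright probes of the array are set beside the members here. Of the 200 brightest probes on the whole array, 82 were members and 105 belonged to the ASMM10AP1B family, whose class no source used here gives. The 200 brightest ASMM10AP1B probes had a median SD of 0.36, a median ethanol difference of 0.38 (0.29 with the block), 197 differences above 0 and 39 of 200 (19.5%) past the threshold between scans. For members these values were 0.36, 0.39, 0.29, 198 and 14.5%. The next 200 ASMM10LNC1A probes in rank, with mean levels from 7.11 to 7.86, had a median SD of 0.41, a median ethanol difference of 0.36 (0.27 with the block), 185 above 0 and 60 (30.0%) past the threshold between scans. The lists share the same arrays and no test was made between them, so no value here is called particular to long noncoding RNA probes.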

How the data were processed

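The members, the lists and the choice of comparisons were made with earlier results of these data known. Each array has a deposited scanner file of linear spot intensities, which the file headers credit to Agilent Feature Extraction 11.0.1.1. The processed intensity is, per the file headers, background-subtracted and detrended within the array and not scaled between arrays. The authors' deposited table holds log2 values of 60641 probes, all 200 members among them, with medians of 6.50 on every array. It gives levels, since each column correlates with the log2 intensity of its own array (lowest r 0.993), and no source used here says how it was normalized. The deposited flags per spot (outlier, well above background and other marks) were used as given.

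Levels are log2 processed intensity minus the 75th percentile of the array over 61537 spots that are not controls. Members were ranked on all spots. For tests, spots marked as outliers were left out, spots of a probe averaged, and probes kept where at least 5 of 10 arrays were well above background (at least 0.5 of the spots of the probe), which left 49363. The comparisons used limma (version 3.58.1, under R 4.3.3; lmFit, eBayes, two-sided, Benjamini-Hochberg over all tested probes, threshold 0.05). The fits were also run on simulated data, whose noise was independent for each probe and array. Those data lack the shift that the members of an array share, so they do not test the counts under it. No 2 arrays held equal values (0% of probes). The number of arrays limits the precision.

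Members named are the 10 highest, the 3 on either side of the limit, the 2 with the smallest p in each direction in each fit, the 2 steadiest and 2 most variable, and the 2 at each end of the scan difference. Normexp (offset 50) was run on the median pixel intensity of spot and background, chosen after the files were read, and the mean pixel intensity was not used here. Sequences of the probes were not used here.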

Additional observations from a re-analysis of the deposited data

Results flagged for a closer look

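In 2 of 60 sets of 5 levels a single array stood apart, in both cases ethanol 4, the ethanol array on scan 1. Chance marks about 1 in 20 such groups. For ASMM10LNC1A113800674V4 the gap of ethanol 4 to the nearest ethanol array was 0.731 of the range of the group, with a level of 8.66 beside 8.00 to 8.17 on the other ethanol arrays. For ASMM10LNC1A108457969V4 the gap was 0.761, with 7.42 beside 8.44 to 8.76. Room air arrays of the same scan read 8.54, 8.36 and 8.04 for the former and 7.60, 7.97 and 7.41 for the latter. For the former ethanol 4 lay above all of these, and room air 3 lay within the range of the other ethanol arrays. For the latter ethanol 4 lay within the range of these room air arrays. Both probes were named in part for an extreme scan difference, so the place of ethanol 4 is only a description. The part of the scan in these values was not tested.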

How the results depend on the processing

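No paired analysis was possible because the sample numbers run across both groups and none is shared. No member passed the adjusted threshold under any alternative but array weights without the scan (141 members). The count at an unadjusted p under 0.05 with a higher ethanol mean (13) was 0 after quantile normalization, median scaling, no scaling or in the authors' deposited table, and 0 for each of these with the scan block. It was 74 with the percentile of probes detected on every array (34 with the block), 29 after normexp, 25 when only probes detected on every array were tested, 4 with the scan block, 3 and 0 within scan 1 and scan 2, 151 with array weights and 4 with weights and the block. The count lower was 1 with the block and quantile normalization or the authors' table, and 0 otherwise. Members with a higher ethanol mean (198) numbered 115 after quantile normalization and in the authors' table (116 and 114 with the block) and 88 after median scaling (191 with the block), and without scaling 163 (140 with the block). The median difference (0.39) was 0.027 after quantile normalization, 0.028 in the authors' table and -0.036 after median scaling, and with the block 0.017, 0.017 and 0.22, and 0.063 without scaling. Members past the threshold between scans (29) numbered 151 after median scaling, 171 with the percentile of probes detected on every array and 56 after normexp. The cause of these changes was not tested.

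Leaving out each array in turn gave 0 to 0 members past the threshold, 0 to 102 at an unadjusted p with a higher mean (0 to 84 with the block, highest without room air 9, and 45 without ethanol 7), 0 lower, 192 to 200 with a higher mean (173 to 200), a median difference of 0.26 to 0.52 (0.15 to 0.47) and 12 to 42 between scans. Without ethanol 4 the median of the members was -0.0042 relative to that of all probes.

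The named members with a lower ethanol mean in either fit changed sign. ASMM10LNC1A109517063V4 (-0.042) was 0.22 with the percentile of probes detected on every array, 0.13 with the block, 0.19 and 0.10 within the scans, 0.12 with the scan as a random block and 0.11 with weights and the block. It was -0.41 after quantile normalization and in the authors' table and -0.47 after median scaling. With the block it was 0.062 after median scaling, 0.21 with that percentile and 0.074 after normexp. ASMM10LNC1A113800674V4 (-0.011) was, in the same order, 0.25, 0.14, 0.34, 0.033, 0.14, 0.11, -0.36, -0.44, 0.075, 0.22 and 0.10. Both probes stayed below 0 with the block after quantile normalization and in the authors' table (-0.16 and -0.12 in each). Without scaling they were -0.088 and -0.075 with the block. ASMM10LNC1A100074447V4 (0.15) was -0.23 after quantile normalization and in the authors' table, -0.28 after median scaling, -0.071 without scaling, -0.050 with the block, -0.16 within scan 1 and -0.040 with the random block. With the block it was -0.35 after quantile normalization and in the authors' table, -0.12 after median scaling, -0.27 without scaling and -0.069 after normexp. ASMM10LNC1A108457969V4 (0.35) was -0.045 after quantile normalization, in the authors' table and with the block, -0.079 after median scaling, -0.24 within scan 1 and -0.025 with the random block. With the block it was -0.36 after quantile normalization, -0.35 in the authors' table, -0.12 after median scaling, -0.27 without scaling and -0.088 after normexp. With each array left out the 4 ran from -0.14 to 0.045, -0.13 to 0.071, 0.041 to 0.29 and 0.20 to 0.58, and with the block from 0.058 to 0.23, 0.033 to 0.22, -0.21 to 0.071 and -0.19 to 0.063.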
